A study of Mus musculus with 16 samples.

Results

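The genes described here are 10 enzymes that mark hepatocytes around the portal vein: Cps1, Otc, Ass1, Asl and Arg1 of the urea cycle, Pck1 and G6pc of gluconeogenesis, and Hal, Sds and Gls2, which break down histidine, serine and glutamine. They were taken by the gene name that the array annotation gives each probe. A total of 9 of the 10 had a probe of that name, 12 probes of 41174 in all, with 3 for Otc, 2 for Ass1 and 1 for each other gene. Pck1 was not matched to a probe and was not analysed here. All 12 probes and all 9 genes passed the filter on dim probes, among 24119 genes tested, and none was saturated. Cps1 is read by a single probe, annotated to a cDNA clone and matched by symbol.

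Expression was measured in cells of adult c129/S3 mouse livers on Purina 5015 diet, sorted with antibodies to the surface antigen MIC1-1C3 (M) and to CD133 (133), the product of Prom1. M+133+ cells carried both antigens and M-133- cells carried neither. Each sort was made with and without DDC, which treated mice ate at 0.1% of the diet for 2 weeks. DDC, diethoxycarbonyl dihydrocollidine, poisons heme synthesis and causes bile ducts to proliferate. There were 4 M+133+ and 2 M-133- samples of untreated livers and 4 samples of each sort after DDC, on 16 arrays, with a repeat array each for sample 1 of the untreated M+133+ and sample 2 of the untreated M-133- group. Per the labels, the sorted cells were taken from combined non-parenchymal fractions of a liver digested with accutase, so M-133- cells are whatever lacks both antigens in that preparation and not a hepatocyte sort. The design text calls the samples biological replicates. Whether a sample pooled mice is not given in the sources used here, and p-values measure the spread between these samples.

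The urea cycle turns ammonia into urea. Cps1 and Otc act in the mitochondrion and make carbamoyl phosphate and citrulline, and Ass1, Asl and Arg1 follow in the cytosol, where arginase 1 releases urea. Portal blood brings ammonia, amino acids and oxygen, and hepatocytes near the portal vein carry most of the liver's urea and glucose production, while those near the central vein make glutamine. G6pc encodes the catalytic subunit of glucose-6-phosphatase, which frees glucose for export. Bile duct cells line the ducts of the same portal tracts.

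Levels are log2 signals relative to the 75th percentile of the array, which is set to 0. The percentile itself lay between 581.6 and 2680.9 intensity units. Between 59.7% and 77% of probes passed the scanner's background test, and the number of arrays limits the precision. Prom1, the check of the sort, lay between 0.85 and 2.27 in the 8 M+133+ samples and between -8.52 and -3.44 in the 6 M-133- samples. Summed linear levels of 12 bile duct markers ran from 175 to 203 and from 186 to 619 in untreated and DDC M+133+ samples, and from 2.71 to 3.73 and from 17.3 to 60.7 in M-133- samples. Such sums follow the brightest markers. In M-133- cells the mean of Spp1 was -4.49 untreated and 4.32 after DDC. The median of the 12 markers ran from -3.84 to -2.48 and from -3.39 to -2.29 in these M-133- groups. The median of all genes shifted by -0.12 and 0.26 in the sort comparisons of untreated and DDC livers, by 0.08 and -0.36 with DDC within each sort (M+133+ first), and by 0.40 for the interaction.

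Each level below stands for the signal of a 60-base oligonucleotide. The probes below show stretches of 4 of the 5 urea cycle transcripts and of Sds, with positions on mouse build mm9; the Cps1 probe is not printed. Each printed probe gave the levels of its gene except that of Otc, whose levels below come from a brighter probe on chromosome X, 9897267 to 9897326. The Ass1 probe ends in 20 bases, in capitals, with which the other Ass1 probe begins, so both Ass1 readings share part of their target. In the array annotation the printed Otc probe lies on chromosome X, 9853843 to 9877490, the Ass1 probe on chromosome 2, 31374279 to 31375918, and the Asl probe on chromosome 5, 130487964 to 130488549. These 3 span more bases of the genome (23648, 1640 and 586) than a probe holds, so their letters are split by at least 1 intron. The Arg1 probe (chromosome 10, 24636194 to 24636253) and the Sds probe (chromosome 5, 120933105 to 120933164) are continuous.
Otc: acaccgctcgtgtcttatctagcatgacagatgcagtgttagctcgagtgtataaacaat
Ass1: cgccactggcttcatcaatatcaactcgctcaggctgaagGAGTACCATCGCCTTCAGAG
Asl: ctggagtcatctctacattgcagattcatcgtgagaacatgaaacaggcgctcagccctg
Arg1: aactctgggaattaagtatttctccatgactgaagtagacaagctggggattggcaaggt
Sds: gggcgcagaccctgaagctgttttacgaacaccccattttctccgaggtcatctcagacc

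The first comparison asked how M+133+ cells, which carry bile duct markers, differ from M-133- cells under the same treatment. M+133+ cells held less of all 9 genes, in untreated livers (median log2 difference -6.98, from -9.50 for Hal to -4.09 for G6pc) and after DDC (median -5.94, from -9.55 for Otc to -3.23 for Asl). Limma adjusted p-values over all genes ran from 0.000112 to 0.0492 and from 9.58e-05 to 0.0156. Of all genes tested, 5.18% were called lower and 3.42% higher in untreated livers, and 6.4% lower and 5.89% higher after DDC. The groups did not overlap for 9 of 9 genes in untreated livers, where 18.8% of all genes were lower without overlap, and for 8 of 9 after DDC, where 7.02% were.

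**Figure D1:**
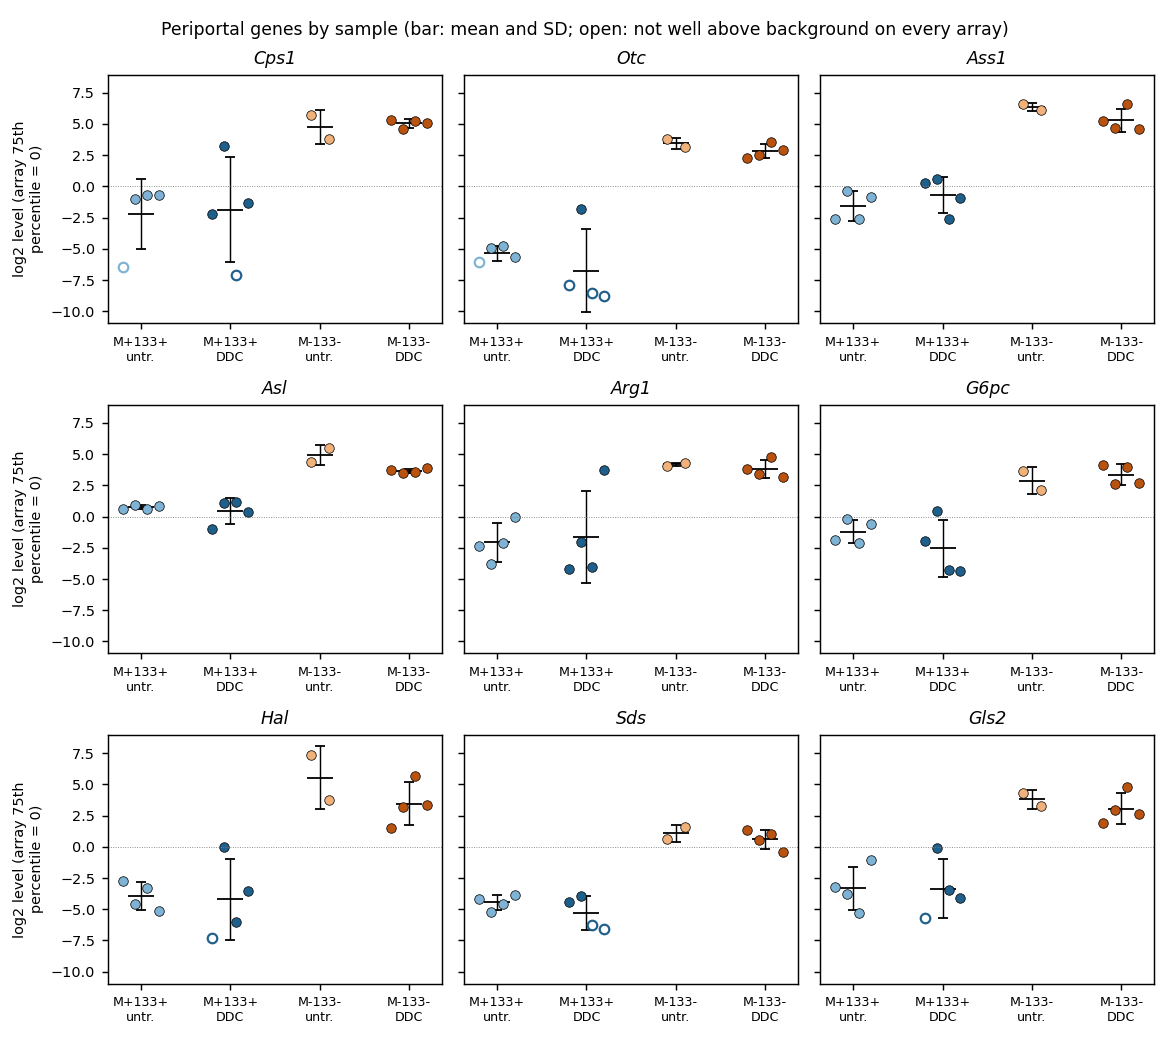
Log2 level of 9 periportal genes in each of the 14 samples, by group; the vertical axis is relative to the 75th percentile of the array, points are samples, bars the mean and SD, and open points samples not well above background on every array. The M+133+ samples lie below the M-133- samples for each gene, except that Arg1 in M+133+ DDC sample 4 stands at 3.74, within the M-133- DDC range.

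Cps1, carbamoyl phosphate synthetase, starts the cycle. Its log2 level was -6.44, -1.01, -0.68 and -0.71 in M+133+ untreated samples 1 to 4, against 5.75 and 3.79 in M-133- untreated samples 1 and 2. After DDC it was -2.20, 3.21, -7.11 and -1.32 in M+133+ samples 1 to 4, and 5.34, 4.57, 5.27 and 5.04 in M-133- samples. After DDC the M-133- samples were close together and the M+133+ samples were not, with SDs of 0.35 and 4.23. In untreated livers the SDs were 1.38 and 2.82. There M+133+ samples 2 to 4 lay closer together than the M-133- samples, and sample 1 lay far below them. Sample 1 of M+133+ untreated rests on repeat arrays that read -4.54 and -8.34, the second not well above background. Cps1 was 126-fold lower in untreated M+133+ cells (log2 difference -6.98, SE 2.06, adjusted p = 0.0492) and 120-fold lower after DDC (-6.91, SE 1.69, adjusted p = 0.0133). The untreated call was the least steady of the 9: it was lost in 18 of 26 alternative settings, with values from -8.33 to -5.57 and adjusted p from 0.00623 to 0.328.

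Otc, ornithine transcarbamylase, joins carbamoyl phosphate to ornithine. Its level was -6.08, -4.97, -4.75 and -5.63 in M+133+ untreated samples, against 3.78 and 3.16 in M-133- untreated samples. In DDC livers it was -7.91, -1.79, -8.50 and -8.75 in M+133+ samples, and 2.28, 2.49, 3.54 and 2.94 in M-133- samples. In M+133+ DDC cells 1 of 4 samples, sample 2, was well above background, so the other 3 values are at the floor of the arrays. Otc was lower in M+133+ cells by -8.82 on the log2 scale in untreated livers (SE 1.47, adjusted p = 0.00168) and by -9.55 after DDC (SE 1.2, adjusted p = 0.000102). The 2 other Otc probes gave the same direction. The probe whose sequence is printed above differed by -9.23 and -9.39 (adjusted p = 0.00178 and 0.000181 over all probes). A dimmer one differed by -5.58 in untreated livers (adjusted p = 0.0242). No M+133+ DDC sample had that dimmer probe well above background. The measured means were -8.64 in M+133+ and -3.58 in M-133- DDC cells (limma adjusted p = 0.00904). With M+133+ signals raised to the dimmest signal above background on each array, it was 17.4-fold lower than in M-133- DDC cells. Other probes failed the background test at higher signals, such as Gls2 at -5.68 in M+133+ DDC sample 1. The 17.4-fold is therefore not a strict lower limit.

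Ass1, argininosuccinate synthetase, condenses citrulline with aspartate. Its level was -2.59, -0.33, -2.64 and -0.82 in M+133+ untreated samples, against 6.59 and 6.12 in M-133- untreated samples. With DDC feeding it was 0.27, 0.63, -2.57 and -0.95 in M+133+ samples and 5.22, 4.71, 6.61 and 4.61 in M-133- samples. Every M+133+ sample was well above background, so Ass1 mRNA was measured there at a lower level. The differences were -7.95 in untreated livers (SE 0.91, adjusted p = 0.000112) and -5.94 after DDC (SE 0.74, adjusted p = 9.58e-05). The other Ass1 probe, at chromosome 2, 31375899 to 31375957, gave -9.06 and -5.60 (adjusted p = 9.09e-06 and 4.48e-05).

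Asl, argininosuccinate lyase, splits the product of Ass1 into arginine and fumarate. It was 0.61, 0.93, 0.64 and 0.85 in M+133+ untreated samples, against 4.35 and 5.50 in M-133- untreated samples. Under DDC the level was -1, 1.13, 1.21 and 0.41 in M+133+ samples and 3.74, 3.52, 3.54 and 3.88 in M-133- samples. Asl had the smallest SD of the 9 genes in M+133+ untreated cells, 0.16. It was 18-fold lower in M+133+ cells of untreated livers (-4.17, SE 0.58, adjusted p = 0.000466) and 9.39-fold lower after DDC (-3.23, SE 0.47, adjusted p = 0.00037).

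Arg1, arginase 1, ends the cycle, and is also known from activated macrophages. It was -2.32, -3.76, -2.11 and 0.00 in M+133+ untreated samples, against 4.09 and 4.28 in M-133- untreated samples. After DDC the level was -4.20, -2.01, -4.02 and 3.74 in M+133+ samples and 3.84, 3.38, 4.79 and 3.18 in M-133- samples. Sample 4 of M+133+ DDC therefore overlapped the M-133- DDC samples, whereas the other 3 lay below them. Arg1 was 75.2-fold lower in untreated M+133+ cells (-6.23, SE 1.66, adjusted p = 0.0303) and 42.8-fold lower after DDC (-5.42, SE 1.36, adjusted p = 0.0156). Without M+133+ DDC sample 4 the DDC difference was -7.21 (adjusted p = 0.000126). The untreated call was lost in 8 of 26 alternatives (adjusted p from 0.00115 to 0.166) and the DDC call in 3 (0.000126 to 0.0938), among them the fits without M+133+ DDC sample 1 (-4.56, adjusted p = 0.0536) and sample 3 (-4.62, adjusted p = 0.0503).

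G6pc stood for gluconeogenesis. It was -1.87, -0.23, -2.11 and -0.57 in M+133+ untreated samples, against 3.67 and 2.11 in M-133- untreated samples. In livers fed DDC it was -1.98, 0.48, -4.28 and -4.36 in M+133+ samples and 4.15, 2.61, 4.00 and 2.73 in M-133- samples. All 8 M+133+ samples were well above background and below all 6 M-133- samples. The differences were -4.09 (SE 1.16, adjusted p = 0.0404), the smallest of the untreated comparison, and -5.91 after DDC (SE 0.94, adjusted p = 0.000738). The untreated call was lost in 7 of 26 alternatives, with adjusted p from 0.0101 to 0.332.

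Hal, histidine ammonia lyase, releases ammonia from histidine. It was -2.77, -4.60, -3.30 and -5.16 in M+133+ untreated samples, against 7.32 and 3.77 in M-133- untreated samples. With DDC it was -7.31, -0.03, -6.03 and -3.50 in M+133+ samples and 1.49, 3.22, 5.71 and 3.36 in M-133- samples. The M-133- samples spread more for Hal than for any other of the 9 genes in both treatments, with SDs of 2.51 and 1.73. The differences were -9.50 (SE 1.68, adjusted p = 0.00252) and -7.66 (SE 1.37, adjusted p = 0.00168).

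Sds, serine dehydratase, makes pyruvate from serine for glucose synthesis. It was -4.14, -5.25, -4.57 and -3.82 in M+133+ untreated samples, against 0.59 and 1.55 in M-133- untreated samples. In DDC samples the gene was -4.39, -3.92, -6.29 and -6.60 in M+133+ samples, of which samples 3 and 4 were not well above background, and 1.32, 0.51, 1.00 and -0.45 in M-133- samples. Sds was lower by -5.51 (SE 0.90, adjusted p = 0.00152) and -5.90 (SE 0.74, adjusted p = 1e-04). Gls2, the liver glutaminase, feeds ammonia from glutamine to Cps1. It was -3.18, -3.76, -5.27 and -1.09 in M+133+ untreated samples, against 4.32 and 3.27 in M-133- untreated samples. After DDC its level was -5.68, -0.12, -3.49 and -4.08 in M+133+ samples and 1.90, 2.97, 4.76 and 2.60 in M-133- samples. Its differences were -7.12 (SE 1.35, adjusted p = 0.00405) and -6.40 (SE 1.1, adjusted p = 0.00128). Neither gene overlapped between the sorts in either treatment.

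**Figure D2:**
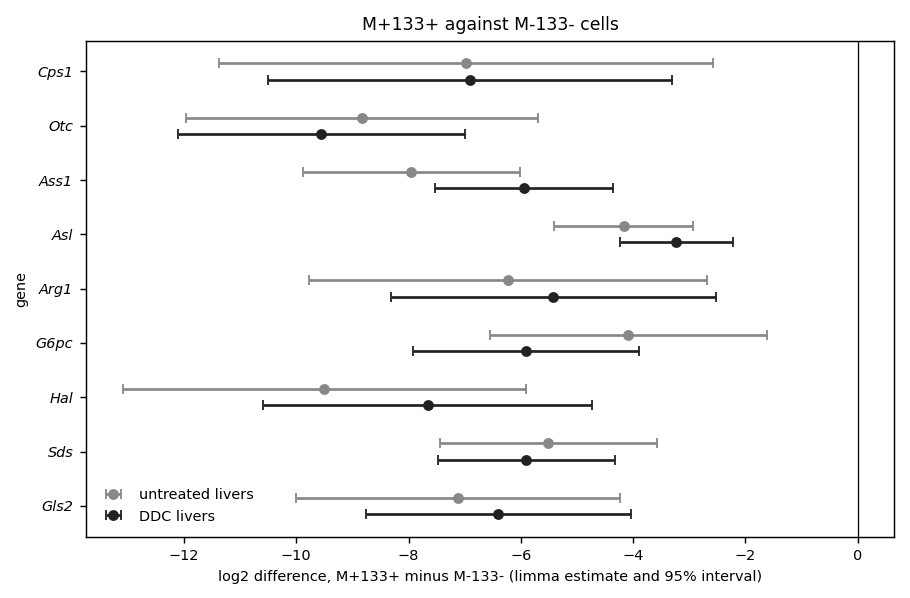
Log2 difference of M+133+ minus M-133- cells for 9 periportal genes, as the limma estimate with its 95% interval, in untreated (grey) and DDC livers (black). All 18 intervals lie below 0, from -9.55 to -3.23 at their estimates, and the intervals of Cps1 and Hal are the widest.

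Markers of several cell types moved with these differences. Of 19 hepatocyte markers 12 were called lower in untreated M+133+ cells and 15 after DDC, with median differences of -5.09 and -5.19, beside -6.98 and -5.94 for the 9 periportal genes. Their summed linear levels, which the brightest markers dominate, ran from 110 to 209 in M+133+ against 675 to 1370 in M-133- untreated samples, and from 144 to 246 against 630 to 1040 after DDC. Of the 19, 17 to 19 were well above background in each M+133+ DDC sample, and all 19 in every other sample. Single markers spread from -9.68, for Tdo2 of tryptophan breakdown (adjusted p = 4.95e-05), to 0.23 in untreated livers and from -9.79 to -0.21 after DDC. Endothelial markers, 11 in all, were also higher in M-133- cells, with 9 and 10 called; their sums ran from 439 to 634 and from 35.4 to 159, against at most 28.2 in any M+133+ sample. Of 10 stellate cell markers 3 and 9 were called lower in M+133+ cells, with sums in M-133- cells of 29.3 to 56.1 and 128 to 296, and at most 14.8 in M+133+ cells. In such samples a lower share of hepatocytes and less of a transcript in each cell cannot be told apart.

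Slides were compared because samples were spread over 5 of them. Within slide 2 (1 sample per sort, untreated) the 9 genes differed by -8.79 to -3.65, median -6.83, and within slide 4 (1 per sort) by -9.41 to -2.65, median -5.29. All 9 were negative in each, but both comparisons rest on repeat arrays of the same M-133- sample, sample 2. M+133+ DDC samples lay on slides 3 and 4 and M-133- DDC samples on slides 1, 2 and 5, so no slide gives a within-slide DDC difference between the sorts. With slide as a fixed block 6 of 9 genes were called after DDC; Arg1 (-5.97, adjusted p = 0.0938), Hal (-6.60, adjusted p = 0.107) and Gls2 (-5.86, adjusted p = 0.0848) were not. Without M-133- untreated sample 1, 4 of 9 genes were called in untreated livers (Otc, Ass1, Asl and Sds), and the 9 differences ran from -8.52 to -3.31.

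Within M+133+ DDC cells the genes varied together in a single sample. Sample 2 was the highest of the 4 for 7 of 9 genes (Cps1, Otc, Ass1, G6pc, Hal, Sds and Gls2), and the median of the 9 genes was -0.03 there against -4.20, -4.28 and -3.50 in samples 1, 3 and 4. The median of the 19 hepatocyte markers was 2.94 in sample 2, against 0.81, -1.29 and -1.36. That of the 12 bile duct markers was lowest in sample 2, at 3.07, against 5.19, 3.81 and 4.34. The summed level of 11 Kupffer cell and macrophage markers was 15 in sample 2, with 11 of 11 well above background, against 1.33, 7.45 and 0.42. Their part in the result was not tested. Without sample 2 the median DDC sort difference was -6.91, with Asl the smallest at -3.46, and all 9 genes were called (highest adjusted p 0.0371). Otc then had 0 of 3 M+133+ DDC samples well above background. Those 3 were 1240-fold lower than M-133- DDC cells, reckoned as for its dimmer probe and likewise not a strict lower limit. Sample 2 was left out after its values were seen, so this is no bound for the group. Its own Otc level was -1.79, against an M-133- DDC mean of 2.81.

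Arg1 did not follow that sample. Its highest M+133+ value, 3.74, was in DDC sample 4, where the median of the 9 genes was -3.50, the hepatocyte marker median was -1.36, and the macrophage marker sum, 0.42, was the lowest of all M+133+ samples. There 6 of 11 macrophage markers were well above background, and the bile duct marker median was 4.34. In M+133+ untreated cells Arg1 was highest in sample 4, at 0.00, which also had the highest Gls2 (-1.09) and Sds (-3.82) and the highest hepatocyte marker median, 1.33. Hal went the other way and was the lowest of its group in sample 4, at -5.16. The macrophage marker sum of that sample, 8.32, was also the highest of its group, against 3.35, 3.17 and 3.21 in samples 1 to 3. Neither link to Arg1 was tested.

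**Figure D3:**
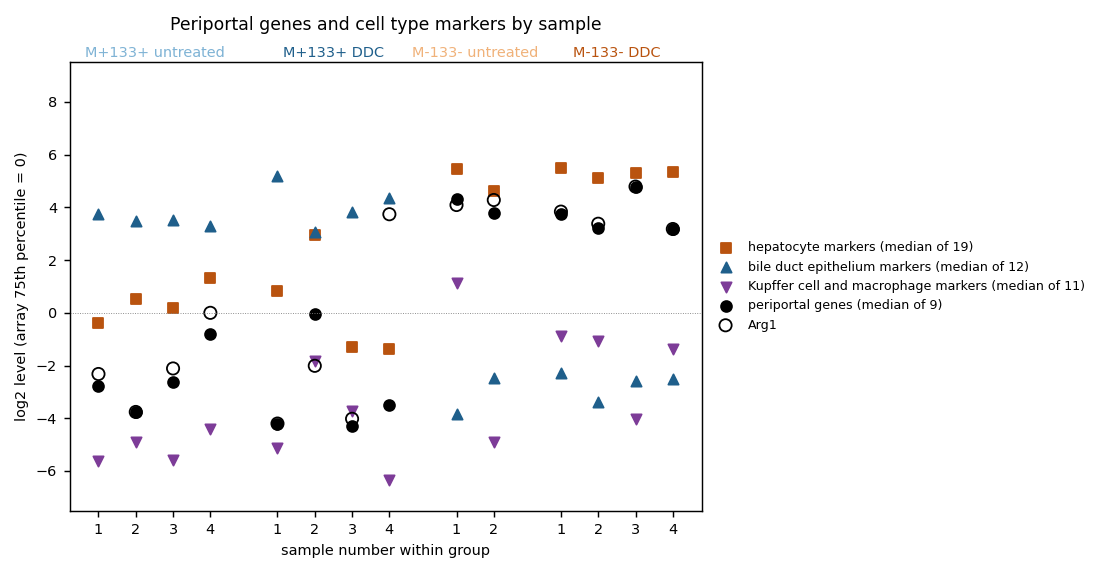
Median log2 level of 9 periportal genes (black points), of 19 hepatocyte, 12 bile duct and 11 macrophage markers, and the level of Arg1 (open circles), in each sample. The periportal median lies between -4.28 and -0.03 in the 8 M+133+ samples and between 3.18 and 4.76 in the 6 M-133- samples; Arg1 departs from it most in M+133+ DDC sample 4.

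The second comparison asked what DDC feeding does to each sort. In M+133+ cells 0 of 9 periportal genes were called by limma, beside 0.24% of all genes. At an unadjusted limma p under 0.05 were 0 of the 9 and 2951 of all 24119 genes. Differences of DDC minus untreated ran from -1.38 for Otc to 0.94 for Ass1, with adjusted p from 0.62 to 0.998. The intervals were wide: 95% limits were -3.24 and 3.95 for Cps1, -3.94 and 1.18 for Otc, and -1.33 and 0.69 for Asl, the narrowest. Changes of up to several log2 units in Cps1 or Otc therefore could not be told from the spread of samples. Without M+133+ DDC sample 2 the median difference was -1.32 in place of -0.26. Otc was then not well above background in any remaining M+133+ DDC sample (measured mean -8.39). Raised to the dimmest signals above background, these samples lay 4.29-fold below the untreated mean of -5.36, which is not a strict lower limit. Nor is it a bound for the group, since sample 2 was left out after its values were seen. Otc was not called by limma without it (adjusted p = 0.0572). Within slide 3 (2 samples per treatment) the median was 0.42 with 7 of 9 genes positive. Within slide 4 (2 DDC samples, 1 untreated) it was -2.62 with 8 of 9 negative, so the direction was not shared between slides. M+133+ DDC samples 1 and 2 lay on slide 3, and samples 3 and 4 on slide 4. On slide 3 the median level of the 9 genes was -4.20 in DDC sample 1 and -0.03 in DDC sample 2. DDC samples 3 and 4, on slide 4, were at -4.28 and -3.50. The 1 untreated sample on slide 4, sample 4, had the highest median of its group, -0.82. Why the slides differed was not tested.

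In M-133- cells 0 of 9 genes were called by limma after DDC, against 0.958% of all genes. Of all 24119 genes 3072 were at an unadjusted limma p under 0.05, and of the 9 genes 1 was. That gene was Asl, named here after its value was seen: the 4 DDC samples (3.52 to 3.88) lay below both untreated samples (4.35 and 5.50), a difference of -1.26 (95% interval -2.49 to -0.02, adjusted p = 0.382). Of all genes, 13% were lower after DDC without overlap. The repeat arrays of M-133- untreated sample 2 read 3.86 and 7.14 for Asl, a gap wider than the difference. Hal had the largest estimate, -2.10 (95% interval -5.69 to 1.5, adjusted p = 0.695), and G6pc the largest positive one, 0.48 (-1.99 to 2.95, adjusted p = 0.917). The median of the 9 genes was -0.66, beside -0.36 over all genes. It was -0.62 within slide 1 and 0.57 within slide 2.

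**Figure D4:**
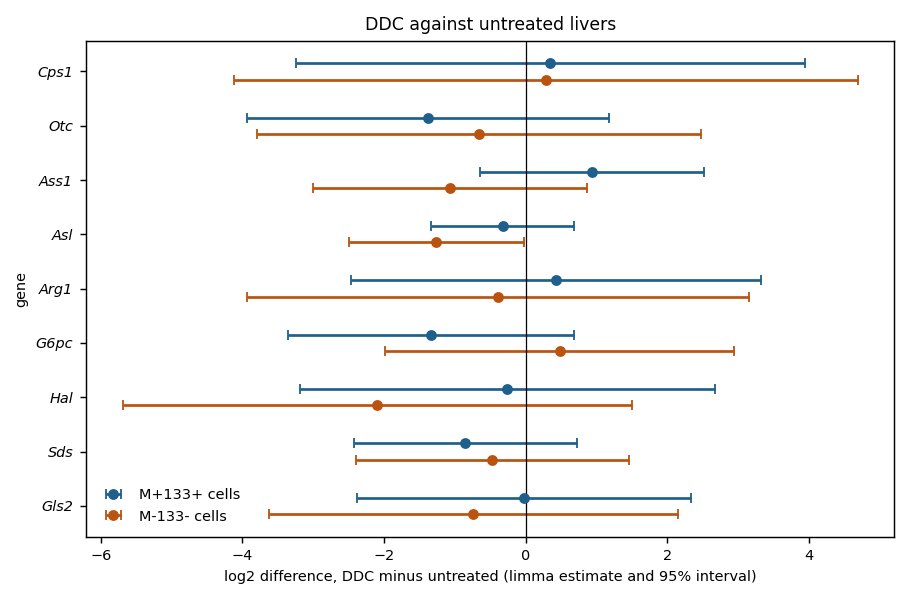
Log2 difference of DDC minus untreated for 9 periportal genes, as the limma estimate with its 95% interval, in M+133+ (blue) and M-133- cells (orange). Every interval but that of Asl in M-133- cells (-2.49 to -0.02) spans 0, and no gene was called after adjustment.

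The interaction asked whether the gap between the sorts changed with DDC. Of the 9 genes 0 were called by limma, beside 0.257% of all genes. At an unadjusted limma p under 0.05 were 0 of the 9 and 2427 of all 24119 genes. Estimates ran from -1.82 for G6pc (95% interval -5.01 to 1.37) to 2.01 for Ass1 (-0.49 to 4.50), with adjusted p from 0.604 to 0.997. The 2 Ass1 probes differed in size. The second probe rose by 1.99 with DDC in M+133+ cells at an unadjusted p of 0.00615, but did not pass the adjustment (adjusted p = 0.228), and its interaction was 3.47 (unadjusted p = 0.00312, adjusted p = 0.222). The first probe gave 0.94 (adjusted p = 0.676 over all probes) and 2.01 (adjusted p = 0.6).

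Other genes of the same pathways were read from lists chosen with earlier results of these data known. Of 15 further urea cycle and ammonia genes, 7 were lower in untreated M+133+ cells and 6 after DDC, and 0 were higher. Nags makes the N-acetylglutamate that Cps1 needs; it differed by -6.60 (adjusted p = 0.0107) and -6.11 (adjusted p = 0.0031). Slc38a3, a glutamine transporter, differed by -6.45 (adjusted p = 0.000108) and -5.33 (adjusted p = 3.92e-05), and Agmat, agmatinase, by -5.94 and -6.65 (adjusted p = 0.00921 and 0.000652). Aqp9, a channel for glycerol and urea, differed by -7.32 and -5.02 (adjusted p = 0.00461 and 0.00933). Over the 26 alternatives 2 to 9 were lower in untreated livers, with 2 without M-133- untreated sample 1 and 4 without sample 2, and 4 to 8 after DDC.

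Of 19 further genes of glucose metabolism 7 were lower in untreated M+133+ cells; after DDC 6 were lower and 3 higher. Fbp1, the liver fructose bisphosphatase, was lower in both (-5.07 and -6.33, adjusted p = 0.00274 and 5.79e-05). Pfkfb1 was also lower (-4.11 and -3.27, adjusted p = 0.041 and 0.0361), but its calls were lost in 11 and 8 of 26 alternatives. The 3 higher after DDC were Fbp2, the muscle form (4.81, adjusted p = 0.0113), G6pc3, the ubiquitous glucose-6-phosphatase (4.70, adjusted p = 0.00874), and Pck2, the mitochondrial counterpart of Pck1 (1.86, adjusted p = 0.0435, lost in 19 of 26 alternatives). None of these 3 was called in untreated livers, at 1.76, -0.06 and 1.58 (adjusted p = 0.589, 0.991 and 0.214). G6pc3 was at -0.34 and -4.67 in untreated and DDC M-133- cells and at -0.39 and 0.03 in M+133+ cells, so its gap came with a low M-133- DDC mean (SD 2.52, n = 4). Over the alternatives 2 to 8 genes of the list were lower in untreated livers, with 2 without M-133- untreated sample 1, 3 without M+133+ untreated sample 1, and 4 without M+133+ untreated sample 2 or 4. After DDC 2 to 7 were lower, with 3 without M-133- DDC sample 1.

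Further relatives of the periportal set were read beside them. Arg2, the mitochondrial arginase, differed by 3.45 (adjusted p = 0.15) and 2.85 (adjusted p = 0.113), with mean levels of -3.97 and -4.20 in M+133+ and -7.43 and -7.04 in M-133- cells. Sdsl, a relative of Sds, differed by -1.1 (adjusted p = 0.591) and was lower after DDC (-3.09, adjusted p = 0.00973). Arg2, Sdsl, Pck2 and G6pc3 therefore had differences between -3.09 and 4.70, whereas those of the 9 periportal genes ran from -9.55 to -3.23.

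Of 15 genes of amino acid breakdown 10 were lower in untreated M+133+ cells and 11 after DDC, with 0 higher. They included the enzymes after Hal in histidine breakdown: Uroc1 (-7.74 and -7.53, adjusted p = 0.0177 and 0.00392) and Ftcd (-8.40 and -8.22, adjusted p = 0.0127 and 0.00256). Gnmt, glycine N-methyltransferase, differed by -7.93 and -6.34 (adjusted p = 1.41e-05 and 8.87e-06), Agxt, which uses glyoxylate, by -7.26 and -7.12 (adjusted p = 0.0143 and 0.00286), and Mat1a, methionine adenosyltransferase, by -6 and -8.54 (adjusted p = 0.0125 and 0.000141). Over the alternatives 3 to 12 were lower in untreated livers, with 3 and 5 without M-133- untreated samples 1 and 2, and 6 to 11 after DDC, with 6 under slide as a fixed block. List medians were -3.65 and -3.47, beside -2.68 and -1.86 for the urea cycle list and -2.13 and -1.1 for glucose metabolism.

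Periportal position was compared with pericentral position by 2 further lists. Of 10 other periportal genes 7 were lower in untreated M+133+ cells and 9 after DDC, with medians of -5.91 and -6.54. They included Cyp2f2 (-9.76 and -8.57, adjusted p = 0.00869 and 0.00346), Hsd17b6 (-8.68 and -8.28, adjusted p = 0.00152 and 0.000264) and Etnppl (-9.78 and -8.29, adjusted p = 0.0127 and 0.0069). Hsd17b13, of lipid droplets, differed by -7.94 and -6.60 (adjusted p = 0.00211 and 0.00112). Of 12 pericentral genes 5 were lower in each treatment, with medians of -2.39 and -1.57. Lower in both were Cyp2e1 (-6.67 and -6.01, adjusted p = 0.0102 and 0.00349), Cyp27a1 (-7.36 and -5.96, adjusted p = 0.00173 and 0.00107), Cyp1a2 (-6.42 and -4.83, adjusted p = 0.00436 and 0.0048) and Slco1b2 (-6.32 and -5.90, adjusted p = 0.0166 and 0.00486). Slc1a2, a glutamate transporter, was higher after DDC (6.14, adjusted p = 0.0198), and Glul, glutamine synthetase, did not pass (-1.5 and -1.25, adjusted p = 0.218 and 0.163). The medians of the lists were not tested against each other. In M-133- untreated cells Rhbg, Cyp7a1, Axin2, Tbx3 and Slc1a2 had means between -4.74 and -2.73, and the remaining pericentral genes -0.89 or more. All 10 other periportal genes had means of 0.38 or more there. Dim genes leave less room for a lower level in M+133+ cells. Over the alternatives 2 to 8 other periportal and 1 to 7 pericentral genes were lower in untreated livers, and 5 to 9 and 1 to 6 after DDC. The untreated counts were 2 and 1 without M-133- untreated sample 1, and the periportal count was also 2 without sample 2. With DDC, 1 gene of these 7 lists was called, Pigr, the receptor that carries immunoglobulin A into bile, which fell by 2.33 in M+133+ cells (adjusted p = 0.0421, lost in 14 of 26 alternatives).

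**Figure D5:**
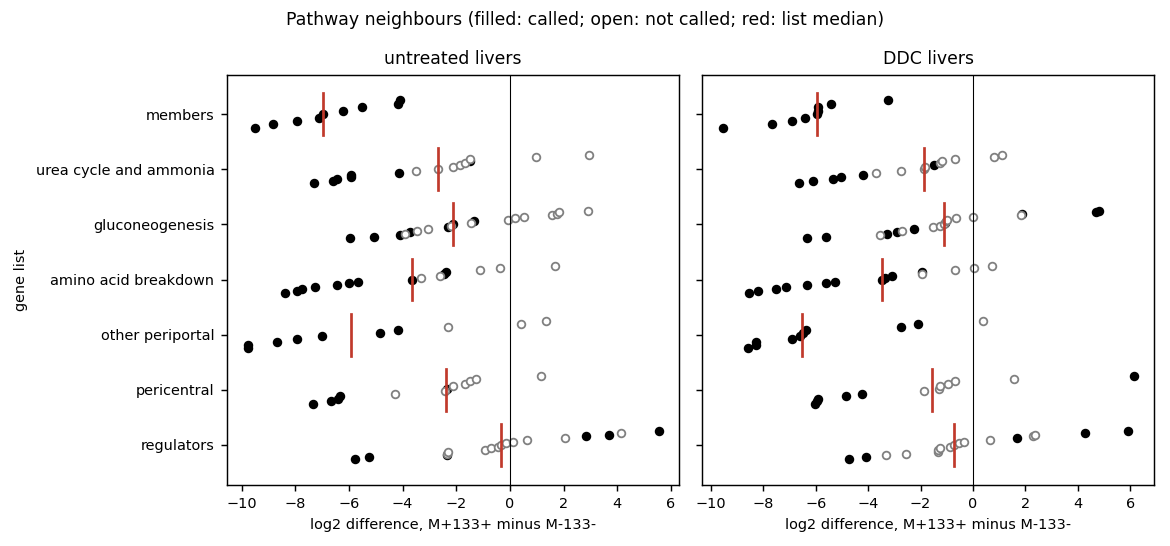
Log2 difference of M+133+ minus M-133- cells for the 9 periportal genes (members) and for 6 lists of related genes, in untreated and DDC livers; each point is a gene, filled where called at adjusted p under 0.05, and red lines mark list medians. The 9 genes lie wholly below 0 with medians of -6.98 and -5.94, and the regulators lie on both sides of 0 with medians of -0.32 and -0.73.

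Among 17 transcription factors and receptors that govern these enzymes, calls fell on both sides: 3 higher and 3 lower in untreated M+133+ cells, and 3 higher and 2 lower after DDC. Gcgr, the glucagon receptor, was lower in both treatments (-5.77 and -4.07, adjusted p = 0.00358 and 0.00615). Creb3l3, a fasting-induced factor of the liver, and Cebpa were lower in untreated livers (-5.24 and -2.36, adjusted p = 0.0326 and 0.0196) and did not pass after DDC (-3.31 and -1.32, adjusted p = 0.0804 and 0.0882); the untreated calls were lost in 10 and 7 of 26 alternatives, and the Creb3l3 DDC call was gained in 2. Foxa3 was lower after DDC (-4.72, adjusted p = 0.00194) and did not pass in untreated livers (-0.92, adjusted p = 0.744). Foxa1 (5.55 and 5.92, adjusted p = 0.0119 and 0.00129), Onecut1 (3.71 and 4.29, adjusted p = 0.0378 and 0.00334) and Foxa2 (2.85 and 1.67, adjusted p = 0.00614 and 0.03) were higher in M+133+ cells in both. The untreated call of Onecut1 was lost in 10 of 26 alternatives (adjusted p up to 0.253) and the DDC call of Foxa2 in 11 (up to 0.116). Over the alternatives 0 to 4 regulators were higher and 0 to 4 lower in untreated livers, with 2 and 0 without M-133- untreated sample 1, and 2 to 4 and 1 to 4 after DDC, with 2 and 4 without M-133- DDC sample 4. Hnf4a, a main activator of hepatocyte genes, differed by -2.33 and -1.34 and did not pass (adjusted p = 0.0545 and 0.159); in untreated livers it passed in 5 of 26 alternatives.

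The 6 genes whose levels were most like the median of the 9 over the 14 samples were Cyp2c39 (Pearson r = 0.985), Hao1 (0.983), Gchfr (0.983), Fabp1 (0.977), Tat (0.973) and Hgd (0.972). The 14 points share 4 groups, and a correlation across them mostly restates the gap between the sorts. Hao1 oxidizes glycolate, Fabp1 binds fatty acids, and Tat and Hgd break down tyrosine. Probes of Cyp2c39 can also read close relatives of the Cyp2c family. Their differences between the sorts ran from -7.83 for Cyp2c39 to -5.04 for Fabp1 in untreated livers and from -8.41 for Gchfr to -5.86 for Fabp1 after DDC, all called. With DDC, 0 of the 6 were called in either sort.

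Promoter windows of RefSeq (build GRCm38.p6) were matched for 5 of the 10 genes: Ass1, Pck1, Hal, G6pc and Otc. The G6pc and Hal windows before the start of transcription are printed because they hold motifs, and the Otc window as one of a member without them. Capitals mark the motifs found, on either strand. Letters searched were AGGTCA and CAAAGTCCA for HNF4, TTGCNNAA for C/EBP, GTTAAT for HNF1, TGTTTAC for FOXA, TGACG and TGACGTCA for CREB and TATAAA for the TATA box; CREB's short form lies inside its long form.
G6pc, chr11:101367466-101367715, + strand: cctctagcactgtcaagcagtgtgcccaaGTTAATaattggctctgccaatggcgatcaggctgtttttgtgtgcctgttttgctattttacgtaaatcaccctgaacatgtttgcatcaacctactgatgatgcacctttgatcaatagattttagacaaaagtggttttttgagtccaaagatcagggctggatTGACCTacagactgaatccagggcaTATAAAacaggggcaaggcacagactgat
Hal, chr10:93488518-93488767, + strand: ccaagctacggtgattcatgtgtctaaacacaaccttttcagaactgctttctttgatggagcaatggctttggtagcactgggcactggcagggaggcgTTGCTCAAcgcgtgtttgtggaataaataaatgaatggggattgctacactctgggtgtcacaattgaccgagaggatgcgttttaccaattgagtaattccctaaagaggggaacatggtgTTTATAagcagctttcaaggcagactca
Otc, chrX:10252055-10252229, + strand: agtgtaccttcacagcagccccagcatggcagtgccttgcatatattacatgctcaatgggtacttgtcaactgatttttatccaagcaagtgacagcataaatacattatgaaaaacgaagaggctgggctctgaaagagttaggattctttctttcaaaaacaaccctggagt

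The G6pc window holds GTTAAT 221 bases, AGGTCA 54 bases (on the other strand) and TATAAA 29 bases before the start. The Hal window holds TTGCNNAA 150 bases and TATAAA, on the other strand, 28 bases before the start. The window of Pck1, not analysed here, holds GTTAAT 192 and TGACG 90 bases before the start, both on the other strand. The Otc window and that of Ass1, which is not printed, hold none of these letters. Of 32536 promoter windows of 250 bases, 14% hold AGGTCA, 0.387% CAAAGTCCA, 9.57% TTGCNNAA and 6.47% GTTAAT. For the other letters the shares are 3.17% for TGTTTAC, 17.9% for TGACG, 1.56% for TGACGTCA and 12.3% for TATAAA. The counted windows were not cut at the start of transcription, whereas the Otc window was, to 175 bases. These matches describe letters and not binding.

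The authors' deposited table gives linear folds of M-133- over M+133+ cells for the same probes. For Otc, by the brightest probe, the authors' deposited table has 455.232 in untreated and 606.029 in DDC livers, with false discovery rates of 0% and 0.48%. For Arg1 the authors' deposited table has 68.6 and 40.367, with rates of 0.25% and 5.17%. For Hal the authors' deposited table has 320.37 in untreated livers, beside 725 here, the widest gap among the 9 genes. Across probes, which are not independent replicates, the log2 folds of that table and the differences here correlated at 0.976 in untreated livers.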

How the data were processed

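Per the file headers, the deposited array files give intensity values from Agilent Feature Extraction 10.5.1.1: a processed signal, from which background and the spatial trend of the array were removed, and the raw spot mean with its local background. Nothing in them was scaled between arrays. The authors' deposited table gives signed linear folds, treated here as a score, and, as other values, false discovery rates in percent. The submitters' processing notes name limma; how those values were normalized or tested is not given in the sources used here. Per the labels, amplified cDNA was labelled with Cy3.

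From the array files, log2 processed signals had the 75th percentile of their array subtracted, outlier spots were left out, and repeat spots and then repeat arrays were averaged. Kept probes were those above background in 0.5 or more of a group's samples, for 1 or more groups, and the brightest kept probe stood for a gene. Names came from the files, updated through a RefSeq table. Tests were two-sided, from limma 3.58.1 (R 4.3.3) fitted to all 14 samples with an intensity trend and no block. Calls are genes whose adjusted p (Benjamini-Hochberg, 24119 genes) was under 0.05. The fitting script was tested on simulated data. The text names all members, up to 4 called genes per pathway list and comparison with the paralogs Arg2, Pck2, G6pc3 and Sdsl, and the 6 genes most correlated with the members' median. Single genes added after their values were seen are Glul, Hnf4a, Foxa2, Cebpa and Tdo2. Some genes that this rule names are not reported here. The members and lists were chosen with earlier results of these data known. A further list of neutrophil and erythroid markers (8 tested) had 3 and 2 genes called lower in M+133+ cells of untreated and DDC livers, and the macrophage list (11 tested) 2 and 1 lower with 1 and 0 higher. The extrahepatic counterparts (8 tested) had 0 called in untreated livers and 2 higher and 1 lower after DDC. Alternatives covered normalization, background correction, the probe filter, slide, replicate and title number as blocks, repeat arrays, and leaving out each sample.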

Additional observations from a re-analysis of the deposited data

Results flagged for a closer look

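Among 27 gene and group combinations with 4 samples, 2 held a sample far from the others, where chance gives about 1 in 20. Cps1 in M+133+ untreated sample 1 stood at -6.44, below the other 3 samples (-1.01 to -0.68); its gap was 0.943 of the group's range, against a critical value of 0.829. Without that sample the untreated sort difference of Cps1 was -5.57 (limma adjusted p = 0.11). Otc in M+133+ DDC sample 2 stood at -1.79, above the other 3 samples (-8.75 to -7.91), with a gap of 0.879 of the range. The other 3 were not well above background. Raised to the dimmest signals above background, those 3 were 1240-fold lower than M-133- DDC cells, which is not a strict lower limit. Leaving out sample 2 rests on its own value, so this is no bound for the group.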

How the results depend on the processing

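The differences of all 9 periportal genes between the sorts stayed negative in both treatments under 12 alternatives that kept all samples and 14 that left out 1 sample each, and no called difference of the other genes named in the pathway and regulator lists changed sign; second probes of a gene were not rerun. Some alternatives could not move an estimate, so a kept sign there is no check. These were leaving out a sample of the other treatment, no intensity trend, and only the groups compared. In them only the adjusted p could change. Otc, Ass1, Asl and Sds kept their calls in all 26. In untreated livers 5 members were called with the title number as a block and 4 to 9 with a sample left out (4 without M-133- untreated sample 1), and after DDC 6 to 9. For DDC and the interaction 0 members were called under every alternative. Counts over all genes moved more. The untreated sort gave 2076 calls, 789 with the title number as a block and 844 to 2234 with a sample left out (844 and 1223 without M-133- untreated samples 1 and 2). The DDC sort gave 2963 calls, 1141 with slide as a fixed block. DDC in M+133+ cells gave 58 calls, 106 with quantile normalization, 89 when probes of a gene were averaged, 22 with no intensity trend, 24 with slide as a fixed block and 6 to 113 with a sample left out. DDC in M-133- cells gave 231 calls, 145 with slide as a fixed block, 36 with only the groups compared and 76 to 274 with a sample left out. The interaction gave 62 calls, 37 with normexp background correction, 37 with no intensity trend, 11 with slide as a fixed block, 1 with the title number as a block and 18 to 123 with a sample left out. The cause was not tested.

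Samples with the same replicate number did not deviate together (correlations of deviations from group means -0.06 to 0.07), nor did those sharing a title number (-0.01 to 0.11). Each M-133- sample shared its title number with an M+133+ sample of the same treatment: 1 and 1B untreated, and 5, 6, 7 and 8 after DDC. What these numbers mean is not given in the sources used here. The main fit did not take them as pairing. Correlations between different cells cannot exclude that samples of both sorts came from the same liver. With a replicate block, DDC in M+133+ cells gave 6 calls, DDC in M-133- cells 117 and the interaction 21; among the members, Cps1 (-6.73, limma adjusted p = 0.101) and G6pc (-3.44, adjusted p = 0.138) were not called in untreated livers. With 2 M-133- untreated samples, and probes of Otc, Sds, Cps1, Hal and Gls2 near background in some M+133+ samples, the sizes of those differences are the least certain.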
